A study of Homo sapiens with 6 samples.

Results

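The genes described here are 9 intestinal genes in HT29, an epithelial line grown from a human adenocarcinoma of the colon, with and without knockdown of the glycolytic enzyme aldolase A. They were taken by symbol from the 28278 genes listed for each library and comprise the intestinal transcription factors CDX1, CDX2, HNF4A, KLF4 and KLF5 and the enterocyte genes VIL1, CDH17, FABP1 and KRT20. All 9 passed the filter on low counts and were among the 15307 genes tested. The cells were treated with siRNA against ALDOA (siALDOA, labelled as ALDOA KD) or with a scrambled siRNA (siControl, labelled as WT), and RNA was isolated 48 h later. Each treatment gave 3 libraries that the labels call biological replicates. No separate cultures are described, so the p-values measure the spread between these libraries. Both groups received an siRNA, no cells without siRNA were among the samples, and a single siRNA treatment against ALDOA was used in a single cell line.

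An intestinal epithelial cell is set up by a small network of transcription factors and recognised by the proteins of its absorptive surface. The caudal homeobox proteins CDX1 and CDX2 give the gut epithelium its identity, and the nuclear receptor HNF4A acts beside them on genes of absorption and lipid handling. The zinc finger proteins KLF4 and KLF5 bind similar GC-rich sequences but are known for different sites, KLF4 for differentiating cells near the surface and goblet cells, and KLF5 for dividing cells of the crypt. Villin (VIL1) bundles the actin of microvilli, CDH17 is the cadherin of the lateral membrane of intestinal cells, FABP1 carries fatty acids in the cytoplasm and KRT20 is the keratin of the mature surface epithelium.

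The libraries held from 27277538 to 33237914 counts on genes, and the counts were scaled by TMM normalization to counts per 1000000 (CPM). Ribosomal RNA genes took from 7.71% to 17.4% of the counts, with the 3 highest shares in siControl replicates 1 and 2 and siALDOA replicate 1. The knockdown was visible in all libraries. ALDOA lay between 280 and 305 CPM with siALDOA and between 592 and 668 CPM with siControl. On the log2 scale ALDOA fell by 1.13 (standard error 0.06, adjusted p = 6.95e-11 in edgeR's quasi-likelihood test). Epithelial markers were abundant, with KRT8 at 5093 ± 198 CPM (SD, n = 3) in siALDOA and 5595 ± 190 CPM (SD, n = 3) in siControl, EPCAM at 374 ± 35.8 CPM and 341 ± 16.1 CPM, and CDH1 at 500 ± 6.38 CPM and 527 ± 10.2 CPM (SD, n = 3 each). Of 13 fibroblast and blood cell markers, 3 were tested and 0 passed an adjusted p < 0.05 in edgeR, limma-voom or DESeq2. At an unadjusted p < 0.05 in edgeR 0 of the 3 passed, where 1728 of all 15307 tested genes were higher and 1888 lower. The summed level of the list lay between 17.9 and 18.2 CPM with siALDOA and between 16.5 and 19 CPM with siControl, most of it CD68. The collagen COL1A2, the T cell gene CD3E and the myeloid gene TYROBP were listed at 0 in every library. So were 7308 of the 28278 listed genes, and a 0 is given here as listed and not read as absence. On the log2 scale the intervals of COL1A1 (-0.26 to 0.83) and LUM (-0.91 to 0.40) included 0.

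Of the 9 genes, 3 fell with siALDOA and 0 rose at an adjusted p < 0.05 in edgeR's quasi-likelihood test with Benjamini-Hochberg adjustment over all tested genes, and limma-voom and DESeq2 gave the same counts. The genes that fell were all transcription factors. KLF5 fell by 17.6%, HNF4A fell by 13.8% and KLF4 fell by 22.1%. CDX1, CDX2, VIL1, CDH17, FABP1 and KRT20 did not pass the threshold. Over all 15307 tested genes, 5.29% were lower and 4.36% were higher at that threshold, 9.66% in all, and among the 10079 genes whose mean reached 10 CPM the shares were 7.36% and 5.75%. KLF5, HNF4A and KLF4 also passed the looser unadjusted threshold of 0.01 used in the study, as did 6.74% of all tested genes in the lower and 5.72% in the higher direction. The siALDOA libraries lay below every siControl library for 4 of the 9 genes and above every siControl library for 1, against 14.6% and 13.1% of the tested genes. Of the fold changes, 8 were below 0 and 1 was above 0. When counts were scaled by library totals only, 0 of the 9 genes passed the adjusted threshold. The values of all 5 transcription factors stayed below 0 under that scaling, whereas 2 of the 4 enterocyte genes were then below 0 and KRT20 changed sign.

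**Figure D1:**
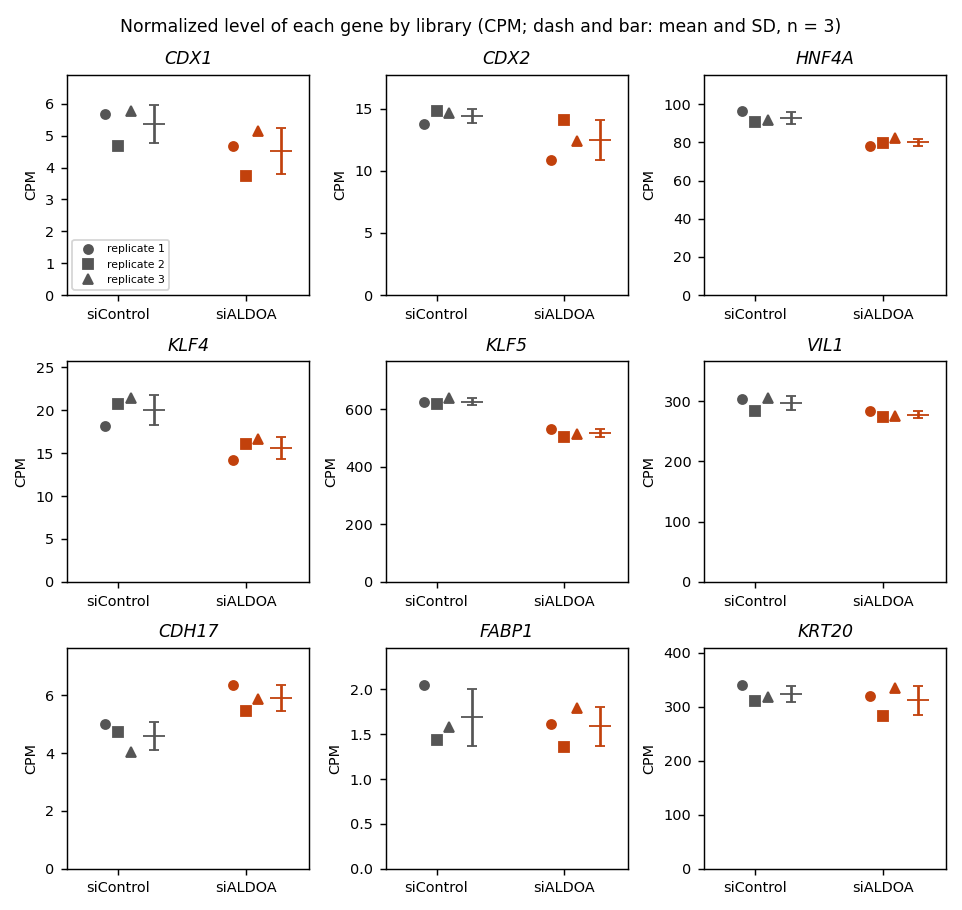
Level of each of the 9 genes in CPM (vertical axes, from 0) in the 3 siControl libraries (grey) and the 3 siALDOA libraries (orange); marker shapes give the replicate number, and the dash with its bar gives the mean and SD. The groups are apart for HNF4A, KLF4, KLF5 and VIL1, all lower with siALDOA, and for CDH17, which is higher, while CDX1, CDX2, FABP1 and KRT20 overlap.

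The promoters of the genes that fell were searched for the binding letters of the factors themselves. RefSeq promoter windows on GRCh38.p14, from 250 bases before to 50 bases after a start, matched 6 of the 9 genes, with alternative starts for HNF4A and KLF5. A gene was counted when any of its windows held the letters, whereas the shares over all windows are per window. The GC-rich KLF letters CCNCNCCC, on either strand, were found for 5 of these 6 genes, HNF4A, KLF4, KLF5, FABP1 and KRT20, and in 56.2% of all 35116 windows. The CDX letters TTTAT were found for CDX2, KLF5, FABP1 and KRT20 and in 34.9% of all windows. Read on the other strand they are ATAAA, which is also part of the TATA box TATAAA. The HNF4 letters CAAAGTNCA (1.1% of all windows) and the letters CATTCC of the TEAD partners of YAP (14% of all windows) were found for 0 of the 6 genes, which says only that these letters are not in these windows. A single match per gene, of the KLF letters for the genes that fell and of the CDX letters for CDX2, FABP1 and KRT20, is printed here 5′ to 3′ in the direction of transcription, with the matched letters in capitals. Each of these genes held further matches, and those printed were picked as examples after the matches were seen. They are chr20:44401169-44401197 (plus strand) for HNF4A, chr9:107489943-107489971 (minus strand) for KLF4, chr13:73058945-73058973 (plus strand) for KLF5, chr13:27969417-27969445 (minus strand) for CDX2, chr2:88128178-88128206 (minus strand) for FABP1 and chr17:40885459-40885487 (minus strand) for KRT20. The matches begin at positions -60, -192, -50, -120, -134 and -235 from the RefSeq start of each window, in that order. For HNF4A, KLF4 and KLF5 that start, and the match, lies inside the span of the gene in GENCODE.
HNF4A, KLF letters: aaccattaacCCCCACCCctccccggcag
KLF4, KLF letters: cccggcccagCCCCGCCCgcgcccctcct
KLF5, KLF letters: ggcgatcgggCCCCGCCCccccggagttg
CDX2, CDX letters: ctccctccccTTTATcttttaaaatgcaa
FABP1, CDX letters: catcctgttcTTTATcattgaccattgct
KRT20, CDX letters: cctgtttcctTTTATtacctgtttaatta

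These matches describe letters, not occupied sites. The KLF letters of HNF4A, KLF4 and KLF5 occur in a majority of all windows, so their presence does not set these genes apart, and KRT20 and FABP1, whose levels did not pass the threshold, held both sets of letters.

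KLF5 was the most abundant of the transcription factors and had the smallest p of the 9 genes. It lies on chromosome 13 of hg38, from 73054976 to 73077541 (ENSG00000102554). KLF5 was at 531, 503 and 515 CPM in siALDOA replicates 1, 2 and 3 and at 625, 616 and 638 CPM in siControl replicates 1, 2 and 3, from 14642 to 21030 counts per library. All 3 siALDOA libraries were below all siControl libraries, and the groups lay far apart compared with the spread within them. The means of KLF5 were 516 ± 13.9 CPM and 626 ± 11.3 CPM (SD, n = 3), and its log2 fold change was -0.28 ± 0.055 (standard error, adjusted p = 0.0021, edgeR). Leaving out each library in turn gave values from -0.30 to -0.26 for KLF5, with an adjusted p < 0.05 (edgeR) in 6 of 6 fits.

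KLF4, the relative of KLF5 tied to differentiated cells, was far less abundant and had the largest relative decrease of the 9 genes. It lies on chromosome 9 from 107484852 to 107490482 (ENSG00000136826), where an unnamed gene of the opposite strand overlaps its exons. That gene is not among those listed, and the strand setting of the counting is not stated, so reads of the overlap cannot be assigned. KLF4 was at 14.2, 16.1 and 16.6 CPM in siALDOA replicates 1, 2 and 3 and at 18.1, 20.7 and 21.4 CPM in siControl replicates 1, 2 and 3, from 396 to 706 counts per library. The groups did not overlap, although the lowest siControl library lay close to the highest siALDOA library. The log2 fold change of KLF4 was -0.36 ± 0.1 (standard error, adjusted p = 0.0279, edgeR). When single libraries were left out, KLF4 passed in 2 of 6 fits. Its adjusted p (edgeR) was 0.0855 and 0.0586 when siALDOA replicates 1 and 2 were left out and 0.105 and 0.144 when siControl replicates 2 and 3 were.

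HNF4A, on chromosome 20 from 44355699 to 44432845 (ENSG00000101076; its exons hold MIR3646, with at most 1 count per library), was at 78.3, 79.8 and 82.1 CPM in siALDOA replicates 1, 2 and 3 and at 96.3, 90.5 and 91.7 CPM in siControl replicates 1, 2 and 3. Every siALDOA library was lower than every siControl library, and the groups were tight, with means of 80.1 ± 1.89 CPM and 92.8 ± 3.09 CPM (SD, n = 3). The log2 fold change of HNF4A was -0.21 ± 0.06 (standard error, adjusted p = 0.0272, edgeR). When single libraries were left out its value stayed between -0.23 and -0.19, but it passed in 2 of 6 fits. Its adjusted p (edgeR) was 0.0838 when siALDOA replicate 2 was left out and 0.0995, 0.0607 and 0.0845 when siControl replicates 1, 2 and 3 were. HNF4G, the paralog that binds the same DNA sequence, was at 64.6 ± 5.22 CPM with siALDOA and 63.9 ± 0.622 CPM with siControl (SD, n = 3), a log2 fold change of 0.016 with a 95% interval from -0.13 to 0.16.

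When the counts were scaled by library totals only, in which the ribosomal RNA counts enter the total, the values of KLF5, HNF4A and KLF4 were -0.21, -0.14 and -0.29 with adjusted p of 0.135, 0.337 and 0.136 (edgeR), and 0 of the 9 genes passed the threshold. Over all tested genes the median was 0.075 on the log2 scale under that scaling and 0.0016 under TMM normalization. With the 37 ribosomal RNA symbols taken out before scaling by library totals, an alternative added after the data were seen, KLF5, HNF4A and KLF4 again passed, with log2 fold changes of -0.27, -0.21 and -0.35.

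**Figure D2:**
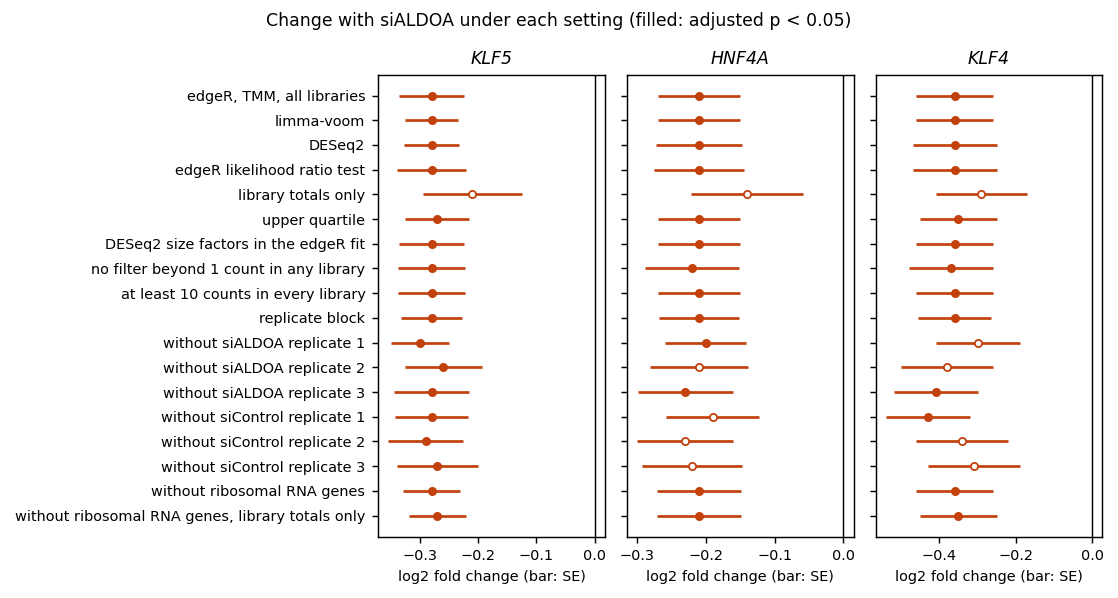
Log2 fold change (horizontal axes, siALDOA minus siControl) of KLF5, HNF4A and KLF4 with its standard error under the fit described in the text and each alternative setting; filled points have an adjusted p < 0.05. All values lie below 0, and scaling by library totals only leaves none of them filled, with values of -0.21, -0.14 and -0.29.

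The caudal homeobox genes did not pass the threshold. CDX2 (ENSG00000165556), on chromosome 13 from 27960918 to 27969315, was at 10.9, 14.1 and 12.4 CPM in siALDOA replicates 1, 2 and 3 and at 13.8, 14.8 and 14.7 CPM in siControl replicates 1, 2 and 3. The highest siALDOA library lay inside the siControl range. The log2 fold change of CDX2, -0.21 (adjusted p = 0.269, edgeR), was as large as that of HNF4A, but its 95% interval ran from -0.45 to 0.02. With single libraries left out, CDX2 ranged from -0.31 to -0.13 and HNF4A from -0.23 to -0.19. CDX1 (ENSG00000113722), on chromosome 5 from 150166778 to 150184558, was at 4.67, 3.73 and 5.14 CPM in siALDOA replicates 1, 2 and 3 and at 5.68, 4.69 and 5.77 CPM in siControl replicates 1, 2 and 3. Its groups overlapped, and its log2 fold change of -0.26 (adjusted p = 0.413, edgeR) had a 95% interval from -0.62 to 0.11. CDX1 ranged from -0.36 to -0.13 with single libraries left out. CDX1 rested on 112 to 190 counts per library and CDX2 on 304 to 485, and both intervals hold decreases of the size found for KLF5.

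Of the 4 enterocyte genes, 0 passed the threshold in edgeR, limma-voom or DESeq2, and only CDH17 had an unadjusted p < 0.05 in edgeR. Over all 15307 tested genes, 1728 were higher and 1888 lower at that unadjusted threshold (edgeR). Villin (VIL1, ENSG00000127831, chromosome 2 from 218419121 to 218453295) was at 284, 273 and 276 CPM in siALDOA replicates 1, 2 and 3 and at 303, 284 and 305 CPM in siControl replicates 1, 2 and 3. The groups of VIL1 came close to touching without overlap, and its log2 fold change was -0.10 (adjusted p = 0.286, edgeR) with a 95% interval from -0.21 to 0.01. Exons of USP37 on the opposite strand overlap VIL1, and since the strand setting of the counting is not stated, reads of the overlap cannot be assigned. KRT20 (ENSG00000171431, chromosome 17 from 40875889 to 40885242) was at 319, 282 and 334 CPM in siALDOA replicates 1, 2 and 3 and at 340, 311 and 318 CPM in siControl replicates 1, 2 and 3. The groups of KRT20 were intermixed, and its log2 fold change of -0.05 had a 95% interval from -0.18 to 0.08, which leaves out decreases as large as the fitted values of KLF5 and KLF4.

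CDH17 (ENSG00000079112, chromosome 8 from 94127162 to 94217303) was the one gene with higher values, at 6.36, 5.46 and 5.88 CPM in siALDOA replicates 1, 2 and 3 and at 5, 4.75 and 4.04 CPM in siControl replicates 1, 2 and 3. The groups did not overlap, but the gene had only 133 to 177 counts per library. The log2 fold change of CDH17, 0.36 ± 0.16 (standard error, adjusted p = 0.182, edgeR), was not past the threshold under any of the 17 alternatives. FABP1 (ENSG00000163586, chromosome 2 from 88122982 to 88128062) was the least counted, with 41 to 64 counts per library. It was at 1.62, 1.36 and 1.79 CPM in siALDOA replicates 1, 2 and 3 and at 2.05, 1.44 and 1.58 CPM in siControl replicates 1, 2 and 3. The groups of FABP1 overlapped, and the 95% interval of its log2 fold change, from -0.69 to 0.52, holds changes of either direction that are larger than that of KLF4.

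**Figure D3:**
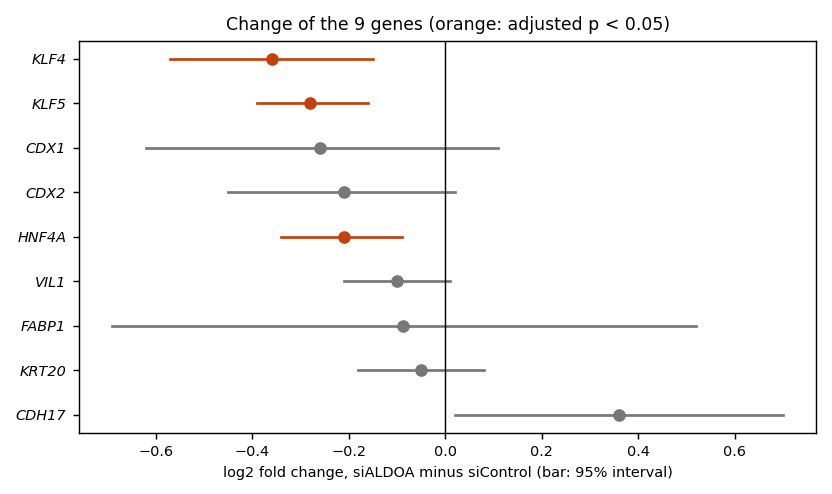
Log2 fold change (horizontal axis, siALDOA minus siControl) with its 95% interval for each of the 9 genes (vertical axis); orange marks an adjusted p < 0.05. The intervals of KLF4, KLF5 and HNF4A lie below 0, that of CDH17 lies just above 0 without passing the adjusted threshold, and the intervals of FABP1 and CDX1 are the widest.

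Levels were compared between genes only after division by transcript length, taken from the canonical transcript of GENCODE release 44. As CPM per kilobase over the 6 libraries, KRT20 stood at 176 and KLF5 at 171, and their ranges overlapped. VIL1 followed at 44.3, HNF4A at 18.6 and KLF4 at 6.08, and from KLF5 down to CDX2 each gene was above the next in 6 of 6 libraries. CDX2 at 3.90 overlapped in range with FABP1 at 3.28, and FABP1 with CDX1 at 2.79, while CDH17 was lowest at 1.43 with a range below that of CDX1. Among the 14469 tested genes with a length, KLF5 and KRT20 were both above 97.9% of genes in level per kilobase, whereas CDX2 was above 33.2% and CDH17 above 19.1%. The mRNAs of the homeobox factors CDX1 and CDX2 were thus far less abundant per kilobase than those of KLF5 and the surface keratin in every library. The annotation behind the deposited counts is not given in the sources used here, so the order depends on the lengths chosen.

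The decrease of KLF4 and KLF5 stood beside lower values in much of the wider KLF family of zinc finger factors. Of 15 other KLF genes, 11 were tested, 4 fell and 0 rose at an adjusted p < 0.05, where 5.29% of all tested genes fell and 4.36% rose. The median log2 fold change of the 11 genes was -0.18, against 0.0016 for all tested genes, and 10 of 11 values were below 0, or 8 of 11 with library totals only. KLF13 was at 179, 192 and 190 CPM in siALDOA replicates 1, 2 and 3 and at 224, 223 and 212 CPM in siControl replicates 1, 2 and 3, with a log2 fold change of -0.23 (adjusted p = 0.011, edgeR). KLF11, first described as a TGF-beta inducible factor, fell by 0.39 (adjusted p = 0.0153), KLF3, a repressor, fell by 0.22 (adjusted p = 0.0208), and KLF9, a target of steroid and thyroid hormones, fell by 0.39 (adjusted p = 0.0279, all edgeR) on the log2 scale. Scaling by library totals only, or leaving out siControl replicate 2, left 0 of the 11 genes past the threshold. Leaving out siControl replicate 3 left 1, and leaving out siALDOA replicate 2 or siControl replicate 1 left 2. KLF1, KLF14 and KLF17 were listed at 0 in every library.

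Of 22 other transcription factors of the gut epithelium, 16 were tested, 1 rose and 1 fell, beside 4.36% and 5.29% of all tested genes, and the median log2 fold change of the 16 genes was 0.013. FOXA2, a pioneer factor of endoderm, was at 15.2, 15.3 and 17.9 CPM in siALDOA replicates 1, 2 and 3 and at 13.2, 10.7 and 10.3 CPM in siControl replicates 1, 2 and 3, a log2 fold change of 0.50 (adjusted p = 0.00856, edgeR). Its paralog FOXA1 was at 92.9, 106 and 117 CPM in siALDOA replicates 1, 2 and 3 and at 122, 122 and 129 CPM in siControl replicates 1, 2 and 3, a log2 fold change of -0.24 (adjusted p = 0.0393, edgeR). With single libraries left out, FOXA2 passed in 3 of 6 fits and not without siALDOA replicate 3, siControl replicate 2 or siControl replicate 3, and FOXA1 passed in only 1 of 6. FOXA1 also did not pass with library totals only (adjusted p = 0.299, edgeR). The factors of the list with the highest mean CPM, not divided by length, were EHF and ONECUT2. They had log2 fold changes of 0.11 (adjusted p = 0.29) and -0.15 (adjusted p = 0.082, both edgeR). GATA4, a factor of the proximal intestine, and MAF were listed at 0.

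Structural genes of the brush border, the microvillus surface that villin helps to build, included 1 that rose and 1 that fell among 18 tested of 20, shares near the 4.36% and 5.29% of all tested genes. EZR, which encodes ezrin, the linker between membrane and microvillus actin, was at 235, 242 and 252 CPM in siALDOA replicates 1, 2 and 3 and at 303, 325 and 328 CPM in siControl replicates 1, 2 and 3, and fell by 0.39 on the log2 scale (standard error 0.057, adjusted p = 9.75e-05, edgeR). PDZK1, a scaffold of apical transporters, was at 51.7, 45.3 and 47.1 CPM in siALDOA replicates 1, 2 and 3 and at 39.1, 34.7 and 37.3 CPM in siControl replicates 1, 2 and 3, and rose by 0.37 (standard error 0.075, adjusted p = 0.00237, edgeR). Both passed under all 17 alternatives. SLC9A3R1, the scaffold also called NHERF1, was at 283 ± 18.4 CPM and 299 ± 7.43 CPM, and EPS8, an actin-capping protein, at 228 ± 7.25 CPM and 223 ± 2.98 CPM in siALDOA and siControl (SD, n = 3). Neither passed the threshold, and ANKS4B and TMIGD1 were listed at 0.

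Most genes of digestion and nutrient uptake, the functions FABP1 serves, did not reach the filter on low counts. Of 25 genes, 9 were tested, and 0 rose and 0 fell at an adjusted p < 0.05 in edgeR's quasi-likelihood test and limma-voom (all tested genes in edgeR: 4.36% and 5.29%). In DESeq2 and the likelihood ratio test 1 rose. The same count rose with library totals only, with a replicate block and without siALDOA replicate 1. At an unadjusted p < 0.05 in edgeR 1 was higher, where 1728 of all 15307 tested genes were higher and 1888 lower. TREH, the trehalase gene, had the smallest p of the 9, with a log2 fold change of 0.25 (adjusted p = 0.0617, edgeR). DPP4, a brush border peptidase, was at 56.7 ± 1.15 CPM and 62.6 ± 6.29 CPM, and SLC5A1, the sodium-glucose transporter, at 49.6 ± 1.83 CPM and 49.4 ± 1.54 CPM in siALDOA and siControl (SD, n = 3). APOB, APOA4, APOC3 and DGAT1 were listed at 0. DGAT1 is used by nearly every cell, so that a 0 in these files is given as listed and not read as absence.

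Of 20 genes of colonocyte ion transport, 12 were tested, 2 fell and 0 rose (all tested genes: 5.29% and 4.36%). CFTR, the chloride channel, was at 125, 125 and 115 CPM in siALDOA replicates 1, 2 and 3 and at 162, 164 and 147 CPM in siControl replicates 1, 2 and 3, and fell by 0.37 on the log2 scale (standard error 0.062, adjusted p = 4.61e-04, edgeR). The calcium channel gene TRPV6 fell by 1.26 (standard error 0.25, adjusted p = 0.00264, edgeR) on only 36 to 116 counts per library. CA12 and SCNN1A, the most abundant of the list, had log2 fold changes of -0.058 and 0.12 that did not pass, and SCNN1B was listed at 0.

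KRT20 was compared with the other epithelial keratins and adhesion genes, of which 14 of 15 were tested, 2 rose and 2 fell (all tested genes: 4.36% and 5.29%). KRT19, a keratin of simple epithelia, was at 1093, 1188 and 1188 CPM in siALDOA replicates 1, 2 and 3 and at 846, 883 and 941 CPM in siControl replicates 1, 2 and 3, and rose by 0.38 on the log2 scale (standard error 0.065, adjusted p = 5.77e-04, edgeR). KRT18, the partner of KRT8, was at 1975, 1886 and 1870 CPM in siALDOA replicates 1, 2 and 3 and at 2247, 2368 and 2345 CPM in siControl replicates 1, 2 and 3, a log2 fold change of -0.28 (adjusted p = 0.0152, edgeR), and KRT80 fell by 0.46 (adjusted p = 2.76e-05, edgeR). PIGR, the receptor that carries immunoglobulin A across the epithelium, rose by 0.59 (adjusted p = 0.0423, edgeR). KRT19 and KRT80 passed under all 17 alternatives, while with single libraries left out KRT18 passed in 2 and PIGR in 1 of 6 fits. KRT18 also did not pass with library totals only (adjusted p = 0.243, edgeR). The value of KRT20, -0.05, lay between that of KRT19 and those of KRT18 and KRT80. LGALS4 was listed at 0, which is not read as absence.

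**Figure D4:**
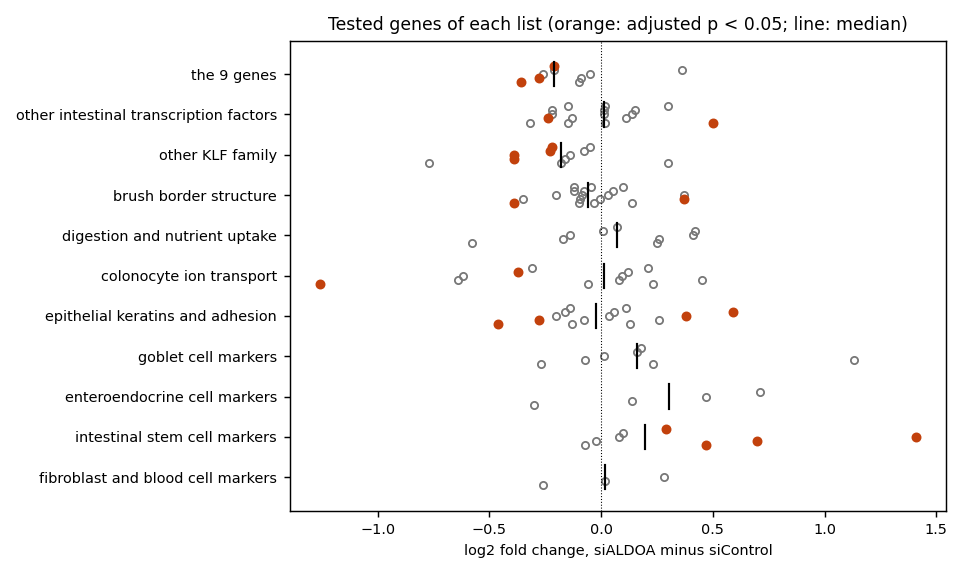
Log2 fold change (horizontal axis, siALDOA minus siControl) of every tested gene in each list (rows); orange points have an adjusted p < 0.05 and black lines are medians. Most of the 9 genes and of the other KLF genes lie below 0 under TMM normalization, with 3 and 4 called genes, while the called stem cell markers lie above 0.

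Markers of other intestinal cell types were set beside these genes. Of 10 stem cell markers, 8 were tested, 4 rose and 0 fell (all tested genes: 4.36% and 5.29%). EPHB2, a receptor of crypt base cells, rose by 1.41 on the log2 scale (adjusted p = 0.00278), ASCL2, a stem cell transcription factor, by 0.70 (adjusted p = 0.0065), LGR5, a receptor for R-spondins, by 0.47 (adjusted p = 0.0272) and AXIN2, a Wnt feedback gene, by 0.29 (adjusted p = 0.0048, all edgeR). EPHB2 was at 3.99, 2.5 and 2.78 CPM in siALDOA replicates 1, 2 and 3 and at 1.35, 1.28 and 0.85 CPM in siControl replicates 1, 2 and 3. LGR5 was at 38.3, 29 and 28.4 CPM in siALDOA replicates 1, 2 and 3 and at 29.3, 20 and 19.8 CPM in siControl replicates 1, 2 and 3, so its groups overlapped, and it did not pass in DESeq2 (adjusted p = 0.205). It also passed in only 3 of 6 fits with single libraries left out, and not without siALDOA replicate 1, siControl replicate 2 or siControl replicate 3. RNF43 and SOX9, the most abundant of the list, had log2 fold changes of -0.071 and 0.10 that did not pass, and OLFM4 was listed at 0. The summed level of the stem cell list lay between 778 and 802 CPM with siALDOA and between 731 and 762 CPM with siControl. The rise of EPHB2, ASCL2, LGR5 and AXIN2 stood beside the decrease of KLF4, KLF5 and HNF4A in the same libraries, and its part in that decrease was not tested. In bulk RNA, a different number of cells of a type and a different level per cell cannot be told apart.

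Goblet cell markers, which share their lineage with KLF4, passed the threshold in 0 of the 7 genes tested of 10 in edgeR's quasi-likelihood test, limma-voom and DESeq2. With a replicate block 1 rose, and without siControl replicate 2, or with no filter beyond 1 count, 1 fell. At an unadjusted p < 0.05 in edgeR 1 was higher and 1 lower, where 1728 of all 15307 tested genes were higher and 1888 lower. The mucin gene MUC2 was at 18.5, 22.2 and 23.6 CPM in siALDOA replicates 1, 2 and 3 and at 26.6, 21.8 and 29.3 CPM in siControl replicates 1, 2 and 3, a log2 fold change of -0.27 (adjusted p = 0.129, edgeR). FCGBP and AGR2 had the highest mean CPM of the list, not divided by length. Their log2 fold changes were 0.18 (adjusted p = 0.199) and -0.07 (adjusted p = 0.574, both edgeR). The summed level of the list lay between 322 and 330 CPM with siALDOA and between 317 and 338 CPM with siControl. Of 10 enteroendocrine markers, 4 were tested and 0 passed in edgeR, limma-voom or DESeq2, also with 0 at an unadjusted p < 0.05 in edgeR. Their summed level was 6.92 to 8.69 CPM with siALDOA and 6.86 to 7.04 CPM with siControl, and PAX4 and NEUROG3 were the highest of them. The 95% interval of the log2 fold change was -0.05 to 0.99 for PAX4 and -0.24 to 1.66 for SCG5, the enteroendocrine genes with the smallest p.

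The genes whose profile over the 6 libraries was nearest to each gene that fell were sought among the 10073 genes other than these 9 whose mean reached 10 CPM, by the root mean square distance of log2 CPM after centring each gene on its mean. SULF2, a sulfatase of heparan sulfate, was nearest to HNF4A at 0.00974, with a log2 fold change of -0.22, and LRRK1 followed at 0.0181. SLC3A2, a subunit of amino acid transporters, was nearest to KLF4 at 0.0225, with a log2 fold change of -0.34, followed by WBP2 at 0.0291 and -0.40. ATXN1 was nearest to KLF5 at 0.0197, with a log2 fold change of -0.27, followed by SFXN4 at 0.0229 and -0.26. These genes were chosen for their likeness, so their values are a description without a test.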

How the data were processed

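The data were RNA-Seq libraries of HT29 cells, 3 per siRNA. Tophat2 (reads to hg38) and gfold (gene counts) were run by the authors, and the deposited files hold raw counts per gene symbol, 1 library per file. The annotation, the strand setting and the treatment of reads with several matches are not given in the sources used here. From these counts, genes were filtered with filterByExpr, scaled by TMM normalization and tested in R 4.3.3 with edgeR 4.0.16 (quasi-likelihood F-test, all 6 libraries, no covariate). Each standard error was derived from the fold change and its F statistic, and 95% intervals use the degrees of freedom of the fit. Log2 CPM used a prior count of 2. The 9 genes and all lists were chosen with earlier results of these data known. The rule for named genes took the 9 genes and ALDOA, and up to 6 called genes of each list by p (else the 2 smallest p). It also took the 2 of each list with the highest mean CPM, those listed at 0, and the 2 nearest profiles for each called gene of the 9. HNF4G and EPS8, and USP37 and MIR3646 as overlapping genes, were named outside the rule after values were seen. EPCAM and CDH1 came from the planned check of HT29 as epithelium, with KRT8, KRT18 and KRT19. Alternatives were limma-voom (limma 3.58.1), DESeq2 1.42.0, the likelihood ratio test, other scalings and filters, blocking on replicate number, and omission of single libraries. The fit was tested on simulated data, in which all changes put in were larger than those of KLF5, HNF4A and KLF4. The simulation therefore does not cover changes of their size. Coordinates came from GENCODE release 44, promoters from RefSeq. Tables were made with pandas 2.3.3 and figures with matplotlib 3.10.9.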

Additional observations from a re-analysis of the deposited data

How the results depend on the processing

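The counts of called genes at an adjusted p < 0.05 were 668 higher and 810 lower over all genes, 0 and 3 of the 9 genes, and 8 and 10 of the other listed genes. With library totals only, 279 genes were lower over all genes (896 higher), 0 of the 9 genes and 4 of the other listed genes. Leaving out 1 library at a time gave 359 to 644 higher and 471 to 790 lower genes, 1 to 3 lower genes of the 9, and 5 to 8 higher and 5 to 9 lower genes of the others. Over all genes, 359 higher and 490 lower were left without siControl replicate 2 and 363 and 471 without siControl replicate 3, and only KLF5 of the 9 genes was past the threshold without siALDOA replicate 2, siControl replicate 2 or siControl replicate 3. With a replicate block, 987 higher and 1175 lower genes passed over all genes, 3 of the 9 genes and 10 higher and 16 lower of the others. Deviations of same-numbered libraries correlated at 0.035, 0.027 and 0.026, so the numbers were not taken to pair the libraries, although each library correlated best with its own number. KLF5 passed in 16, HNF4A in 12 and KLF4 in 12 of 17 alternatives, and ALDOA in 17. With single libraries left out, FABP1 ranged from -0.19 to 0.074 and KRT20 from -0.10 to 0.016. Among genes that did not pass, KRT20 turned to 0.023 with library totals only and 0.016 without siALDOA replicate 2, and FABP1 to 0.013 without siALDOA replicate 2 and 0.074 without siControl replicate 1. The causes were not tested.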
